A study of Brassica napus with 11 samples.

Results

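The epidermis (E) and the vasculature (V) of the funiculus, the stalk that joins the seed to the mother plant, were compared transcript by transcript in 3 libraries each. A transcript entered the comparison if its level averaged 1 FPKM or more (fragments per kilobase of transcript, scaled to the mapped fragments of the library) over the 3 libraries of either tissue, which held for 43564 of the 97902 transcripts measured. Both directions are described, whatever the level in the cortex. The funiculi came from *Brassica napus* cv. Topaz, line DH4079, and were taken 7 days after pollination, when the seed holds a globular embryo. No treatment or mutant was involved, and the groups differ in tissue by design, although RNA quality also differed between them, as given below. Each tissue was cut from sections by laser microdissection, each replicate pooled cut pieces from several plants, and the scarce RNA was amplified before sequencing. The series also holds 2 libraries of the cortex and 3 of the whole funiculus (WF). Values of the cortex and of WF 1 and 3 are given where they place a result, and WF 2 was not used here.

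The epidermis of a plant organ covers its surface with a cuticle, a layer of cutin and waxes that is built from fatty acids elongated and oxidized in the cell, exported and joined outside the wall. The study reports a thick cuticle on the funiculus of Arabidopsis but no prominent one on that of canola. The vasculature holds phloem, whose sieve elements and companion cells carry sugars, proteins and RNA, and xylem, whose vessels and fibers lay down cellulose, xylan and lignin in thick secondary walls. In the funiculus the vasculature is the supply line of the seed, and the epidermis faces the inside of the silique. Gene names and roles below are those of the closest Arabidopsis match in the tables of the study, with roles known from Arabidopsis unless another source is named.

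The deposited values summed to 470716 to 564579 FPKM per library, and 42510 to 44581 transcripts were above 0 in an epidermis library against 46781 to 51017 in a vasculature library. Judged from the step between the low values of a library, the epidermis libraries held 0.405 to 0.588 times the fragments of vasculature 3, the deepest, and the other vasculature libraries 0.573 and 0.671 times. At a median low transcript, 1 FPKM then stood for 2.79 to 6.87 fragments. Correlations of log2(FPKM + 1) were 0.766 to 0.900 between libraries of the same tissue and 0.494 to 0.615 between tissues. The RNA quality table of the study lists a lower integrity number for each vasculature library than for each epidermis library, so RNA quality and tissue cannot be told apart. Near-identical homologs of the A and C subgenomes can share reads, and in such bulk samples more RNA per cell and more cells of a type cannot be told apart. The p-values measure the spread between these libraries.

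The 2 tissues differed at 6823 transcripts, 15.7% of those tested (limma, Benjamini-Hochberg adjusted p under 0.05). Of these, 2899 (6.65%) were higher in the epidermis and 3924 (9.01%) in the vasculature, and 1945 (4.46%) and 2965 (6.81%) were also at least 5-fold apart in their means. The median log2 difference over all tested transcripts was -0.08, with quartiles of -0.67 and 0.47. Among called transcripts the median size of the log2 difference was 2.02 in the epidermis direction, with a maximum of 9.10, and 2.11 in the vasculature direction, with a maximum of 8.92. All 3 epidermis libraries lay above all 3 vasculature libraries at 14.4% of the transcripts, and the reverse held at 18.9%.

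The called transcripts held a like share of the RNA in both tissues. Those higher in the epidermis took 22.1, 20.8 and 22.0% of the summed FPKM of epidermis 1, 2 and 3 and 2.52, 2.32 and 2.24% of the vasculature libraries. Those higher in the vasculature took 23.3, 25.4 and 25.7% of vasculature 1, 2 and 3 and 2.81, 2.90 and 3.1% of the epidermis libraries. Abundant transcripts were often among them: of 427 transcripts averaging 100 FPKM or more in the epidermis 137 (32.1%) were higher there, and of 471 averaging that much in the vasculature 178 (37.8%) were higher in that tissue.

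The 2 directions differed in how often the other tissue was listed at 0. All 3 vasculature libraries were at 0 for 330 of the transcripts higher in the epidermis (11.4%), while all 3 epidermis libraries were at 0 for 1275 of those higher in the vasculature (32.5%). Epidermis 1 and 2 were also the shallowest libraries, with epidermis 3 close to vasculature 2, and the part of depth in this gap was not tested. A transcript listed at 0 is given as such, with no fold, and its log2 difference depends on the 1 FPKM added before the logarithm.

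**Figure D1:**
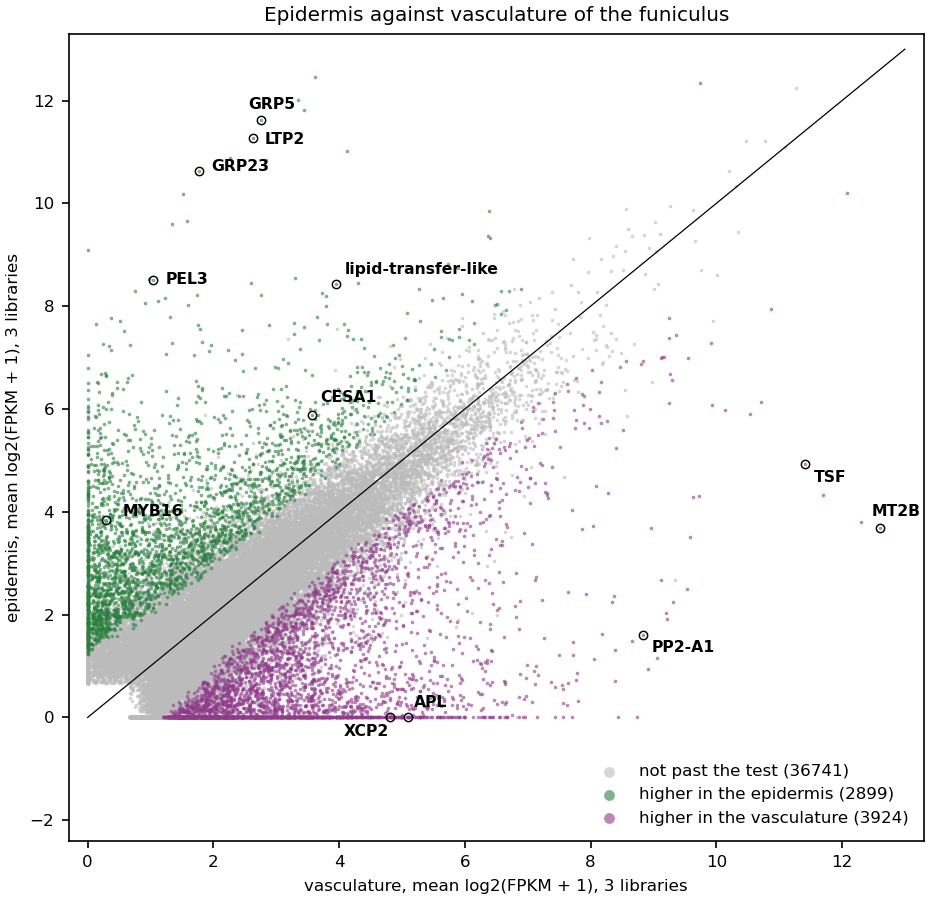
Mean log2(FPKM + 1) over 3 vasculature libraries (horizontal axis) against the mean over 3 epidermis libraries (vertical axis) for the 43564 tested transcripts, with equal levels on the line. Green points were higher in the epidermis (2899), purple points higher in the vasculature (3924) and grey points did not pass the test; rings mark named transcripts, with GRP5 and LTP2 at the upper left and MT2B at the far right.

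Defining markers went with the tissue labels, but all except MYB106, MYB16 BnaA02g02580D and XCP1 come from lists that the study picked as enriched in a tissue on these libraries, so their direction is no independent check. The 9 epidermis marker transcripts, of MYB16, MYB106, PDF2, KCS10/FDH, CYP86A2, PEL3 and LACS1, were higher in the epidermis, and in each the 3 epidermis libraries lay above the 3 vasculature libraries. MYB16, a regulator of epidermal cell shape and cuticle, was at 19.1, 14.2 and 24.3 FPKM in the epidermis as BnaC02g05990D and listed at 0 in all 3 vasculature libraries. Its homolog BnaA02g02580D was at 17.3, 14.9 and 9.26 FPKM against 0.438, 0 and 0.294 FPKM (log2 difference 3.55 ± 0.32 SE, adjusted p = 0.000312). The phloem markers APL, SEOA, SEOB, SUC2, PP2-A1, CALS7 and NAKR1 and the xylem markers IRX3, IRX6, XCP1, XCP2, NST1, MYB46 and LAC17 were all higher in the vasculature, again without overlap. PP2-A1 (BnaA01g34970D), a lectin of phloem sap, kept 3.99, 2.51 and 0.578 FPKM in the epidermis beside 419, 546 and 415 FPKM in the vasculature.

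**Figure D2:**
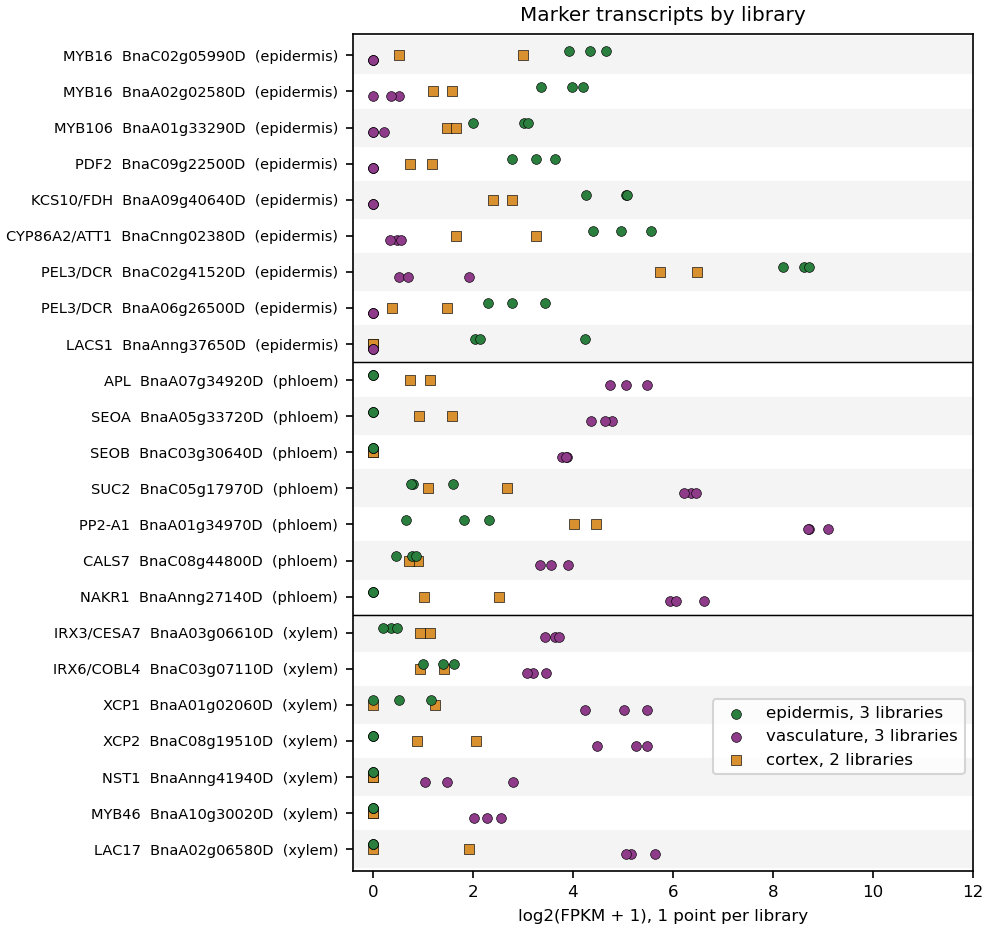
Level of marker transcripts in each library, as log2(FPKM + 1), with epidermis libraries in green, vasculature libraries in purple and the 2 cortex libraries as orange squares. For each transcript shown, the 3 libraries of the labelled tissue lie apart from the 3 of the other, and MYB16 BnaC02g05990D, PDF2, FDH, PEL3 BnaA06g26500D and LACS1 are at 0 in all vasculature libraries.

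The listed transcripts of cuticle formation were higher in the epidermis. All 12 tested members of the cuticle and wax list were higher in the epidermis, with a median log2 difference of 4.52 against -0.08 over all transcripts. The list draws its members from transcripts that the study picked as enriched in a tissue on these libraries, as do the other Arabidopsis gene lists below, so these counts are not independent evidence of their direction. All 12 came from the study's epidermis list, of whose 139 transcripts 85 were higher in the epidermis and 0 in the vasculature. Of 24 genes written for the cuticle and wax list, 11 were paired with a transcript of the study's tissue lists. Summed over the 12 members the level was 3929, 2176 and 3679 FPKM in epidermis 1, 2 and 3 and 23.5, 2.01 and 10.6 FPKM in vasculature 1, 2 and 3. Vasculature 2 thus held the least of these transcripts.

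LTP2 (BnaAnng27610D), a lipid transfer protein of the cuticle and the wall beneath it, led the list. It was at 3253, 1610.4 and 2917 FPKM in the epidermis and at 13.4, 0.684 and 8.62 FPKM in the vasculature, a 342-fold difference in means (log2 difference 8.66 ± 0.77, adjusted p = 0.000281). LTP6 (BnaC05g43760D), of the same protein family, was at 127, 91.7 and 203 FPKM against 6.29, 0 and 0.845 FPKM. For both, epidermis 2 was the lowest epidermis library and vasculature 1 the highest vasculature library, with no overlap. PEL3 (BnaC02g41520D), an acyltransferase needed for cutin, was at 391, 292 and 422 FPKM in the epidermis and 2.77, 0.432 and 0.619 FPKM in the vasculature, 289-fold apart (log2 difference 7.47 ± 0.41, adjusted p = 4.75e-05). The PEL3 homolog BnaA06g26500D differed in the same direction at a far lower level, 5.92, 3.92 and 9.92 FPKM beside 0 in all vasculature libraries.

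Other listed genes of cutin, wax and the outer cell layer followed at levels of 3 to 50 FPKM. FDH (BnaA09g40640D), a fatty acid elongase of the epidermis, was at 32.3, 32.7 and 18.1 FPKM and listed at 0 in the vasculature, and the elongase KCS12 (BnaC04g15590D) was at 5.35, 2.1 and 3.15 FPKM, likewise at 0. CYP86A2 (BnaCnng02380D), which oxidizes the end of cutin fatty acids, was at 46.1, 30.1 and 20.01 FPKM against 0.407, 0.477 and 0.273 FPKM (83.1-fold, adjusted p = 0.000135). ABCG32 (BnaA04g15520D), an exporter of cutin precursors, was close to even among the epidermis libraries at 21.6, 25.1 and 24.2 FPKM, against 0.648, 0.414 and 0.237 FPKM (54.5-fold, adjusted p = 6.68e-05). CUS2 (BnaC08g08210D), which joins cutin outside the cell, was at 21.7, 31.3 and 26.5 FPKM, and the regulator SHN2 (BnaC09g04040D) at 13.5, 29.0 and 27.8 FPKM, both listed at 0 in the vasculature. LACS1 (BnaAnng37650D), which activates fatty acids, was highest in epidermis 2, at 3.12, 18.0 and 3.39 FPKM beside 0 in the vasculature (adjusted p = 0.016). PDF2 (BnaC09g22500D), a homeodomain regulator of the outer cell layer, was at 11.5, 8.57 and 5.91 FPKM and at 0 in the vasculature.

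GDSL lipases, a family that includes cutin synthases, did not all go with the epidermis. Of 8 tested members 4 were higher in the epidermis, 2 in the vasculature and 2 did not pass. The study's epidermis list gave 6 of the 8 and its vasculature list 2, so the directions repeat the selection. BnaCnng34700D was at 366, 353 and 389.7 FPKM in the epidermis and 2.45, 0.261 and 0.748 FPKM in the vasculature (log2 difference 7.56 ± 0.39, adjusted p = 3.85e-05). In the other direction BnaC04g27640D was at 0.371, 0.779 and 0.537 FPKM in the epidermis and 47.7, 47.7 and 57.3 FPKM in the vasculature (log2 difference -5.06 ± 0.25, adjusted p = 3.73e-05). The 2 that did not pass, BnaA02g27380D and BnaC09g22170D, were high in epidermis 1 alone, at 41.3 and 89.6 FPKM against 0 to 0.379 FPKM in the other epidermis libraries.

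Among the transcripts higher in the epidermis that carry a description, the most abundant were not those of cutin enzymes. GRP5 (BnaC05g31560D), a glycine-rich protein of the cell wall, was at 3444, 1979 and 4660.1 FPKM in the epidermis and 7.38, 1.53 and 13.4 FPKM in the vasculature, 452-fold apart (log2 difference 8.88 ± 0.65, adjusted p = 0.000121). The 3 transcripts of GRP23, another glycine-rich protein, behaved alike, with BnaC03g18040D at 1891, 965 and 2175 FPKM against 5.57, 0.870 and 2.24 FPKM (log2 difference 8.86 ± 0.52, adjusted p = 5.72e-05). The homologs BnaA04g18980D and BnaA03g15020D averaged 834 ± 251 and 828 ± 316 FPKM (SD, n = 3) in the epidermis and 2.95 ± 3.00 and 1.81 ± 1.52 FPKM in the vasculature. In all 4 transcripts epidermis 2 was the lowest epidermis library, still far above any vasculature library. The family as listed split as it was selected, since the study's epidermis list gave 7 members and its vasculature list 4. Here 7 members were higher in the epidermis and 4 in the vasculature. Of the latter, BnaC06g29080D was at 93.3, 185 and 156 FPKM in the vasculature and 1.93, 1.01 and 0.348 FPKM in the epidermis (log2 difference -6.13 ± 0.39, adjusted p = 7.38e-05), while the other 3 averaged 2.78 to 12.6 FPKM. The count of 4 fell to 2 without epidermis 2 or 3, without vasculature 1 or 2, and with quantile scaling, a replicate block or a filter of 5 FPKM.

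Several of the top epidermis transcripts carry no description in the tables used here. The same held for 2681 of the 2899 transcripts higher in the epidermis and 3165 of the 3924 higher in the vasculature. BnaC04g45800D had the highest epidermis mean of all called transcripts, at 4886, 4362 and 8292 FPKM against 29.3, 1.70 and 21.2 FPKM in the vasculature (log2 difference 8.85 ± 0.86, adjusted p = 0.000429). BnaA04g22080D, at 3649, 3787 and 5005 FPKM, and BnaC03g36390D, at 3207, 2776 and 5272 FPKM, were at 2.32 to 20.3 and 1.84 to 28.3 FPKM in the vasculature. BnaC06g24880D had the largest log2 difference of the whole comparison, 9.10 ± 0.39 (adjusted p = 3.52e-05), at 679, 303 and 801 FPKM beside 0 in all 3 vasculature libraries. Vasculature 2 was again the lowest vasculature library for BnaC04g45800D, BnaA04g22080D and BnaC03g36390D. The 10 most abundant epidermis calls together took 6.38, 5.13 and 7.67% of the summed FPKM of the epidermis libraries, in order of replicate, beside 0.305, 0.0901 and 0.21% of the vasculature libraries.

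Wall genes divided between the tissues by member. Of 22 tested transcripts of pectin and primary wall proteins, 12 were higher in the epidermis, 6 in the vasculature and 4 did not pass. The study's epidermis, cortex and vasculature lists gave 11, 5 and 6 of them, so these counts are not independent of the selection. RD22 (BnaC02g48560D), a BURP domain protein that responds to drought, was at 116, 89.4 and 86.8 FPKM in the epidermis and 0.635, 0.248 and 0.852 FPKM in the vasculature (168-fold, adjusted p = 3.52e-05). PME3 (BnaA05g25150D), which removes methyl groups from pectin, was at 47.5, 36.9 and 34.2 FPKM against 1.01, 2.70 and 0.0966 FPKM (31.2-fold, adjusted p = 0.000575). The DUF642 wall proteins DGR2 followed, with BnaC07g29330D at 33.6, 15.0 and 24.05 FPKM against 0.825, 2.18 and 0.277 FPKM, and FOCL1 (BnaC09g09070D), a wall protein of the guard cell ledge, was at 26.1, 19.3 and 14.3 FPKM beside 0 in the vasculature. The groups did not overlap for any of these, and vasculature 2 held the highest vasculature value of PME3 and DGR2.

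The 4 extensin-like transcripts were also higher in the epidermis than in the vasculature, but the cortex stood above both. BnaC08g15350D was at 142, 141 and 107 FPKM in the epidermis and 41.5, 13.33 and 20.4 FPKM in the vasculature (log2 difference 2.47 ± 0.42, adjusted p = 0.00632), with 875 and 758 FPKM in the cortex. In the vasculature direction the wall genes were other families. EXT3 (BnaA07g37340D), an extensin that cross-links into walls, was at 353, 134 and 507 FPKM in the vasculature and 4.16, 1.63 and 1.13 FPKM in the epidermis (log2 difference -6.56 ± 0.55, adjusted p = 0.000217). EXPA15 (BnaA02g26670D), an expansin that loosens walls, was at 85.6, 64.7 and 112 FPKM against 1.09, 8.004 and 7.10 FPKM (adjusted p = 0.00265).

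Transcripts of chromosome A01 and the start of A02 with a description were not chosen for a tissue. Counts of wall genes among them differed by group. Of 6 tested transcripts of xyloglucan, expansin and cellulose enzymes 4 were higher in the epidermis, where 7.17% of the 1883 tested transcripts of this stretch were, and 1 in the vasculature, where 7.97% were. CESA1 (BnaA01g04600D), a cellulose synthase of the primary wall, was at 52.0, 70.3 and 54.5 FPKM in the epidermis and 11.2, 11.9 and 9.595 FPKM in the vasculature (5.40-fold, adjusted p = 0.000805). CESA2 (BnaA01g05450D) was at 25.9, 29.4 and 29.2 FPKM against 6.71, 1.88 and 3.00 FPKM, and the xyloglucan enzyme XTH24 (BnaA01g06750D) at 52.8, 26.8 and 27.1 FPKM against 1.39, 0.980 and 2.62 FPKM. The exception in the vasculature was the expansin-like EXLB1 (BnaA01g18000D), at 80.02, 23.3 and 87.1 FPKM with 0, 0.687 and 0 FPKM in the epidermis. Of 9 tested pectin lyases, methylesterases and acetylesterases 2 were higher in the epidermis and 7 did not pass. None of 5 tested transcripts of the pectin methylesterase inhibitor family passed. PME44 (BnaA01g03620D), a pectin methylesterase, was at 52.8, 65.2 and 59.4 FPKM in the epidermis and 0, 0.448 and 0 FPKM in the vasculature (396-fold, adjusted p = 3.52e-05). A PME3 homolog of the same chromosome, BnaA01g29470D, was at 93.3, 97.6 and 72.5 FPKM and 76.4, 97.8 and 52.4 FPKM and did not pass (adjusted p = 0.653), with overlapping groups.

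Transporters of auxin, a hormone carried from cell to cell, also differed in direction by member. Of the 13 tested transcripts of the auxin and hormone list 5 were higher in the epidermis, 7 in the vasculature and 1 did not pass. The study's epidermis, cortex and vasculature lists gave 5, 1 and 7 of them, so this split repeats the selection. The influx carrier AUX1 was higher in the epidermis as BnaC04g07210D, at 10.6, 9.98 and 9.29 FPKM against 0.140, 2.79 and 1.04 FPKM (7.54-fold, adjusted p = 0.00858), and as BnaA05g06540D, at 6.80, 3.45 and 4.29 FPKM against 0.278, 0.488 and 1.03 FPKM. The efflux transporter ABCB19 (BnaC09g01920D) was at 9.20, 7.27 and 6.89 FPKM against 0.206, 0.241 and 0.414 FPKM (27.1-fold, adjusted p = 0.000409). ABCB2 (BnaC01g17890D), of the same transporter family, was at 33.7, 55.4 and 31.1 FPKM against 0.904, 0 and 0.233 FPKM. The efflux carrier PIN4 (BnaC02g22310D) went the other way, at 13.8, 4.15 and 9.85 FPKM in the vasculature and 0 in all epidermis libraries. So did WAT1, a vacuolar auxin transporter needed for fiber walls, whose transcript BnaC06g43970D was at 32.3, 38.5 and 25.2 FPKM in the vasculature and 0.599, 0.943 and 0 FPKM in the epidermis (log2 difference -4.48 ± 0.34, adjusted p = 0.00013).

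Other hormones gave members on the vasculature side. ABCG25 (BnaC06g32970D), an exporter of abscisic acid, was at 7.80, 12.1 and 14.4 FPKM in the vasculature and 0.209, 0.876 and 1.06 FPKM in the epidermis (adjusted p = 0.00118). GA3OX1, which makes active gibberellin, was higher in the vasculature as BnaC05g11920D, at 36.5, 90.9 and 37.6 FPKM against 4.70, 5.37 and 3.71 FPKM (11.98-fold, adjusted p = 0.00138). Its homolog BnaA06g10250D was at 6.37, 2.80 and 5.71 FPKM in the vasculature and 3.78, 7.48 and 13.4 FPKM in the epidermis, which overlap, and did not pass (adjusted p = 0.485).

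Triterpene and defence transcripts were found on the epidermis side. LUP2 (BnaC06g39380D), a cyclase that makes triterpenes, was at 45.8, 58.7 and 75.9 FPKM in the epidermis and 0.970, 0.142 and 0.733 FPKM in the vasculature (97.8-fold, adjusted p = 6.72e-05). All 6 tested members of the triterpene and defence list came from the study's epidermis list. Of these, 4 were higher in the epidermis and 2 thionin transcripts did not pass, each at 0 in an epidermis library and in all vasculature libraries. The count of 4 fell to 2 without vasculature 3.

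**Figure D3:**
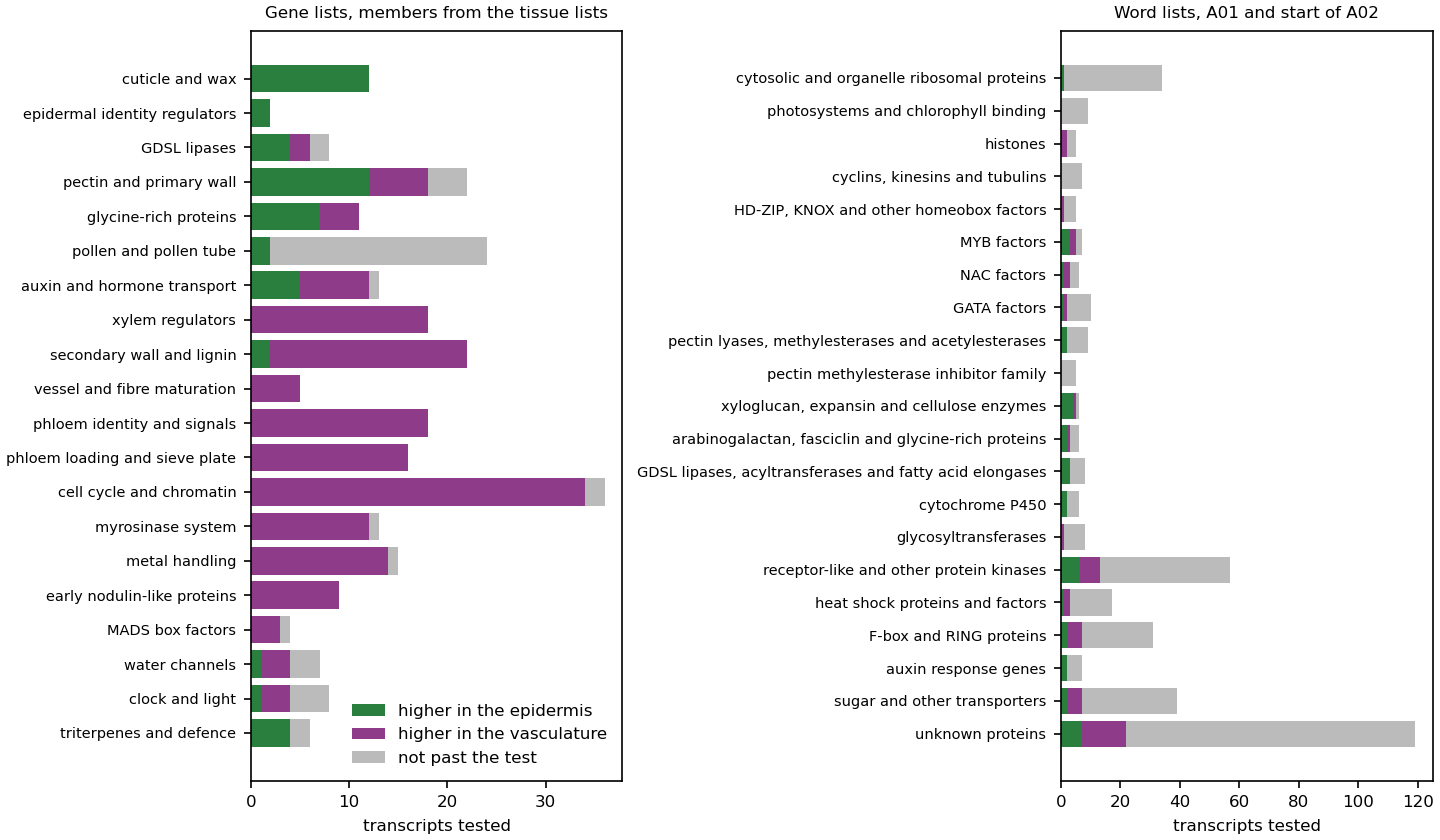
Number of tested transcripts in each list that were higher in the epidermis (green), higher in the vasculature (purple) or not past the test (grey). The left panel holds Arabidopsis gene lists whose members come from the tissue lists of the study, and the right panel lists by description words on chromosome A01 and the start of A02 with at least 5 tested transcripts; cuticle and wax is wholly green (12), phloem loading wholly purple (16), and ribosomal proteins almost wholly grey (33 of 34).

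On the vasculature side, phloem transcripts reached higher sums than those of xylem. All 18 members of the phloem identity and signal list and all 16 of the phloem loading and sieve plate list were higher in the vasculature, with median log2 differences of -3.65 and -3.95. The members of both come from the 684 transcripts that the study listed for the vasculature, of which 652 were higher there and 0 in the epidermis. The same holds for the xylem regulator, vessel, metal, cell cycle, myrosinase and early nodulin-like lists below, so such counts repeat the selection. The first list summed to 4138, 5151 and 4227 FPKM in vasculature 1, 2 and 3 and to 86.1, 47.0 and 27.2 FPKM in epidermis 1, 2 and 3, with 4 of its 18 members above 0 in each epidermis library. Most of that sum was TSF (BnaC06g27090D), a relative of the flowering signal FT made in companion cells. TSF was at 2456, 3242 and 2569.7 FPKM in the vasculature and 57.9, 20.2 and 21.9 FPKM in the epidermis (82.6-fold, adjusted p = 8.99e-05). Its homolog BnaA07g25310D was at 806, 753 and 726 FPKM against 15.0, 17.5 and 4.01 FPKM.

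Regulators and structural proteins of the sieve element were listed at 0 in the epidermis. APL (BnaA07g34920D), a MYB factor that sets phloem identity, was at 25.9, 43.6 and 32.4 FPKM in the vasculature, and the occlusion proteins SEOA (BnaA05g33720D) and SEOB (BnaC03g30640D), which make the filaments of sieve elements, were at 19.6, 26.5 and 23.8 FPKM and 13.8, 12.7 and 13.6 FPKM. RTM2 (BnaC03g01810D), a phloem protein that limits the spread of a potyvirus, was at 41.2, 72.0 and 39.8 FPKM. The peptide gene CLE26 (BnaA02g14720D) was at 6.09, 13.1 and 8.18 FPKM and the early vascular factor TMO6 (BnaA03g09070D) at 4.23, 7.43 and 3.45 FPKM. All 6 had 0 in each of the 3 epidermis libraries and their highest value in vasculature 2, except SEOB, which was even.

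Transcripts of phloem loading and the sieve plate summed to 559, 737 and 585 FPKM in vasculature 1, 2 and 3 and to 12.6, 17.1 and 8.79 FPKM in the epidermis. SUC2 (BnaC05g17970D), which loads sucrose into companion cells, was at 80.8, 86.7 and 74.0 FPKM in the vasculature and 0.733, 2.05 and 0.707 FPKM in the epidermis (69.2-fold, adjusted p = 5.61e-05). The proton pump AHA3, which drives loading, had 3 transcripts, of which BnaC02g11560D was at 73.4, 92.5 and 71.4 FPKM against 0.676, 0.993 and 0.979 FPKM (89.6-fold) and BnaC09g32850D at 44.7, 49.0 and 44.8 FPKM against 4.197, 8.37 and 3.54 FPKM (8.60-fold). SWEET13 (BnaC09g27000D), a sugar exporter, was at 88.4, 51.9 and 105 FPKM, and NAKR1 (BnaAnng27140D), a companion cell protein, at 60.4, 96.8 and 65.5 FPKM, each beside 0 in the epidermis. CALS7 (BnaC08g44800D), which lines sieve pores with callose, was at 9.09, 13.9 and 10.8 FPKM against 0.715, 0.818 and 0.376 FPKM (17.7-fold, adjusted p = 0.00042). None of these groups overlapped.

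Xylem regulators were called in full at low levels. All 18 tested members were higher in the vasculature (median log2 difference -2.17), summing to 90.2, 109 and 102 FPKM in vasculature 1, 2 and 3 and to 0.965, 1.75 and 2.29 FPKM in epidermis 1, 2 and 3. MYB46, a master switch of secondary walls, was at 3.88, 4.93 and 3.04 FPKM as BnaA10g30020D and at 2.84, 3.80 and 4.36 FPKM as BnaA02g01290D, both beside 0 in the epidermis. NST1 (BnaAnng41940D), a fiber NAC factor, was nearest the threshold, at 1.79, 1.05 and 6.01 FPKM beside 0 (adjusted p = 0.0485). VNI2 (BnaC09g43890D), a repressor of vessel formation, was at 9.56, 18.2 and 13.4 FPKM and XND1 (BnaA09g06870D), another repressor, at 4.28, 3.47 and 4.86 FPKM. The vascular patterning genes PHB (BnaA04g20300D) and ICU4 (BnaA06g01940D), of the class III homeodomain family, were at 12.1, 12.5 and 14.2 FPKM and 12.2, 9.34 and 11.3 FPKM in the vasculature and at 0.167 to 0.844 FPKM in the epidermis (adjusted p = 0.000237 and 0.00039). Under a filter of 5 FPKM in place of 1, only 5 xylem regulators were tested and passed.

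Secondary wall and lignin enzymes followed, with 20 of 22 members, all 20 from the study's vasculature list, higher in the vasculature (median log2 difference -3.02). Their sums were even, at 491, 480.1 and 474 FPKM in vasculature 1, 2 and 3 and 31.3, 31.4 and 31.6 FPKM in epidermis 1, 2 and 3. LAC17 (BnaA02g06580D), a laccase that polymerizes lignin, was at 34.6, 48.8 and 32.5 FPKM beside 0 in the epidermis, and IRX3 (BnaA03g06610D), a cellulose synthase of secondary walls, at 11.4, 12.1 and 9.93 FPKM against 0.280, 0.147 and 0.405 FPKM (40.3-fold, adjusted p = 0.000159). The most abundant were the DUF1218 transcripts, with BnaA03g48600D at 101, 70.7 and 83.6 FPKM against 0.675, 3.54 and 0.977 FPKM (49.0-fold). The 2 exceptions, both from the study's epidermis list, were in the phenylpropanoid pathway, which feeds both lignin and surface phenolics. HCT (BnaA01g18180D) was at 15.7, 5.85 and 19.2 FPKM and 4CL3 (BnaC06g26980D) at 4.02, 6.95 and 2.57 FPKM in the epidermis, both beside 0 in all vasculature libraries (adjusted p = 0.000949 and 0.00405). The 4CL5 transcript BnaC03g42000D, for the same reaction as 4CL3, was at 1.17, 0.489 and 0 FPKM in the epidermis and 13.6, 26.3 and 13.2 FPKM in the vasculature (adjusted p = 0.000833).

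Transcripts of vessel maturation were near 0 in the epidermis, with sums of 0.265 to 1.15 FPKM over the list, while the cortex libraries summed to 1.88 and 12.2 FPKM. XCP2, a protease that clears the dying vessel, was at 37.6, 21.2 and 43.5 FPKM as BnaC08g19510D and at 30.2, 22.1 and 29.6 FPKM as BnaA07g11240D, both beside 0 in the epidermis. ACL5 (BnaC02g08800D), which makes the polyamine that delays vessel death, was at 46.9, 53.0 and 54.4 FPKM against 0.733, 1.15 and 0.265 FPKM (71.7-fold, adjusted p = 5.31e-05). All 5 tested members of the list were higher in the vasculature, and vasculature 2 held the lowest XCP2 value.

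Metal handling held the largest log2 difference in the vasculature direction, that of MT2B. The 7 metallothionein transcripts, small proteins that bind metals through cysteine, summed to 18130, 14611 and 19148 FPKM in vasculature 1, 2 and 3 and to 263, 173 and 282 FPKM in epidermis 1, 2 and 3. MT2B (BnaC03g00710D) was at 5327, 6510.0 and 6844 FPKM in the vasculature and 49.7, 6.52 and 4.50 FPKM in the epidermis, 308-fold apart (log2 difference -8.92 ± 0.78, adjusted p = 0.000259). MT2A (BnaA10g27170D) was at 6664, 3379.7 and 5804 FPKM against 27.6, 15.5 and 4.67 FPKM (332-fold, adjusted p = 0.000107). For both, epidermis 1 was the highest epidermis library. A homolog of MT2A was less far apart, with BnaC02g03550D at 1482, 599 and 1027 FPKM against 133, 104 and 264 FPKM, 6.203-fold (adjusted p = 0.00869). Of the transporters, NRAMP1 (BnaA02g36240D), for iron and manganese, was at 57.6, 50.3 and 79.1 FPKM against 1.35, 2.63 and 0.559 FPKM and ZIP1 (BnaC05g40440D), for zinc, at 55.5, 40.4 and 52.4 FPKM against 0, 0.871 and 1.802 FPKM. In all, 14 of 15 listed members were higher in the vasculature. The iron store FER1 (BnaC03g00160D) was at 71.5, 279 and 48.6 FPKM against 44.6, 6.08 and 4.52 FPKM and did not pass (adjusted p = 0.0651).

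Transcripts of DNA replication, chromatin and division were higher in the vasculature in 34 of 36 cases, with a median log2 difference of -2.43. PCNA1 (BnaC08g45280D), the sliding clamp of DNA polymerase, was at 37.4, 15.2 and 30.5 FPKM in the vasculature and 1.11, 0.580 and 3.20 FPKM in the epidermis (17.0-fold, adjusted p = 0.00211). The replication helicase subunit MCM7 (BnaCnng01120D) was at 5.58, 3.68 and 5.93 FPKM against 0.367, 0.577 and 0.531 FPKM. KNOLLE (BnaA08g26870D), a syntaxin of the dividing cell plate, was at 3.26, 2.55 and 2.44 FPKM and CYCB2;4 (BnaC06g37050D), a mitotic cyclin, at 1.64, 5.77 and 3.18 FPKM, both beside 0 in the epidermis. The bulk of the list was histones, of which 21 core transcripts summed to 2210.3, 803 and 2474 FPKM in vasculature 1, 2 and 3 and to 195, 176 and 387 FPKM in epidermis 1, 2 and 3. The H4 transcript BnaC03g11650D was at 231, 68.2 and 245 FPKM against 11.03, 23.1 and 26.6 FPKM (log2 difference -2.98 ± 0.56, adjusted p = 0.0103). Vasculature 2 lay between the epidermis and the other vasculature libraries, and the count of 34 fell to 13 without vasculature 3, to 16 without vasculature 1 and to 24 without epidermis 2.

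The myrosinase system, which splits glucosinolates when tissue is damaged, went with the vasculature in 12 of 13 transcripts. The specifier protein ESP (BnaAnng10080D), which steers the products, was at 870.1, 1124 and 609 FPKM in the vasculature and 9.07, 109.6 and 6.04 FPKM in the epidermis (20.9-fold, adjusted p = 0.00772). The myrosinase TGG1 was at 127, 141 and 77.5 FPKM as BnaCnng22330D against 1.86, 7.80 and 1.35 FPKM (31.4-fold, adjusted p = 0.000717). As BnaA09g08470D it was at 77.0, 169.7 and 50.9 FPKM against 11.4, 27.5 and 0.592 FPKM and did not pass (adjusted p = 0.058). In each of these 3 transcripts epidermis 2 and vasculature 2 were the highest libraries of their tissue. Summed over TGG1 and ESP the levels were 1594, 2771 and 1161 FPKM in vasculature 1, 2 and 3 and 37.0, 222 and 17.3 FPKM in the epidermis. The count of 12 fell to 8 without vasculature 1.

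Further groups had smaller counts. All 9 early nodulin-like transcripts, for proteins anchored at the cell surface, were higher in the vasculature, with ENODL9 (BnaA05g20350D) at 93.4, 185 and 88.3 FPKM beside 0 in the epidermis. By description, 4 MADS box transcripts were tested in the stretch of A01 and A02, of which 1 was higher in the vasculature and 3 did not pass. Of 4 MADS box transcripts from the study's vasculature list 3 were higher in the vasculature. SHP2, a regulator of carpel and valve margin, was at 44.6, 31.9 and 51.3 FPKM as BnaA05g02990D against 4.69, 4.55 and 2.35 FPKM (11.02-fold, adjusted p = 0.000557), and the root and vascular factor AGL12 (BnaCnng07880D) was at 4.93, 0.680 and 2.92 FPKM beside 0 and did not pass (adjusted p = 0.0503). Water channels, drawn from each tissue list of the study, differed by member. The boron channel NIP6;1 (BnaC06g40240D) was at 73.4, 117 and 75.9 FPKM in the vasculature beside 0, and PIP1;5 (BnaA03g45950D) at 36.8, 13.2 and 25.9 FPKM beside 0. PIP2E (BnaA03g18300D) was higher in the epidermis, at 10.1, 9.85 and 17.7 FPKM against 0.476, 3.07 and 0 FPKM (adjusted p = 0.00978). The PIP2E call was lost without vasculature 1.

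Among abundant vasculature transcripts outside the lists were 2 of ACBP6, a carrier of acyl-CoA. BnaA09g24910D was at 1405, 2127 and 1577 FPKM in the vasculature and 77.1, 59.1 and 72.8 FPKM in the epidermis (24.4-fold, adjusted p = 8.51e-05), and BnaAnng25690D at 1305, 1589 and 1567 FPKM against 46.2, 51.5 and 84.3 FPKM. The glutamine synthetase BnaA02g12430D, which fixes ammonium, was at 1651, 623 and 1394 FPKM against 39.3, 58.7 and 104 FPKM (18.1-fold, adjusted p = 0.00123). BnaC04g42160D, which has no description, was at 342, 267 and 459 FPKM beside 0 in all epidermis libraries, but at 171 and 86.7 FPKM in the cortex.

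In the clock and light list, the transcripts of GRP7 varied widely within the vasculature. GRP7, an RNA-binding protein whose level follows the day, was at 3825, 109.6 and 2289 FPKM in vasculature 1, 2 and 3 and at 243, 438 and 84.8 FPKM in the epidermis as BnaC08g49360D, and did not pass (adjusted p = 0.305). Vasculature 2 lay within the range of the epidermis while vasculature 1 and 3 lay far above it, and the 4 GRP7 transcripts together summed to 7255, 235 and 4477 FPKM in the vasculature. The clock component PRR5 (BnaA06g26980D) was higher in the vasculature, at 10.4, 7.86 and 11.8 FPKM against 0.757, 1.98 and 0 FPKM (adjusted p = 0.0048), and the light factor PIF7 (BnaA03g40080D) in the epidermis, at 2.70, 5.68 and 5.03 FPKM against 0.489, 0.717 and 0.0821 FPKM (adjusted p = 0.00925). Of 8 tested transcripts, 7 of them from the study's vasculature list, 3 were higher in the vasculature, and 6 were so without vasculature 2.

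**Figure D4:**
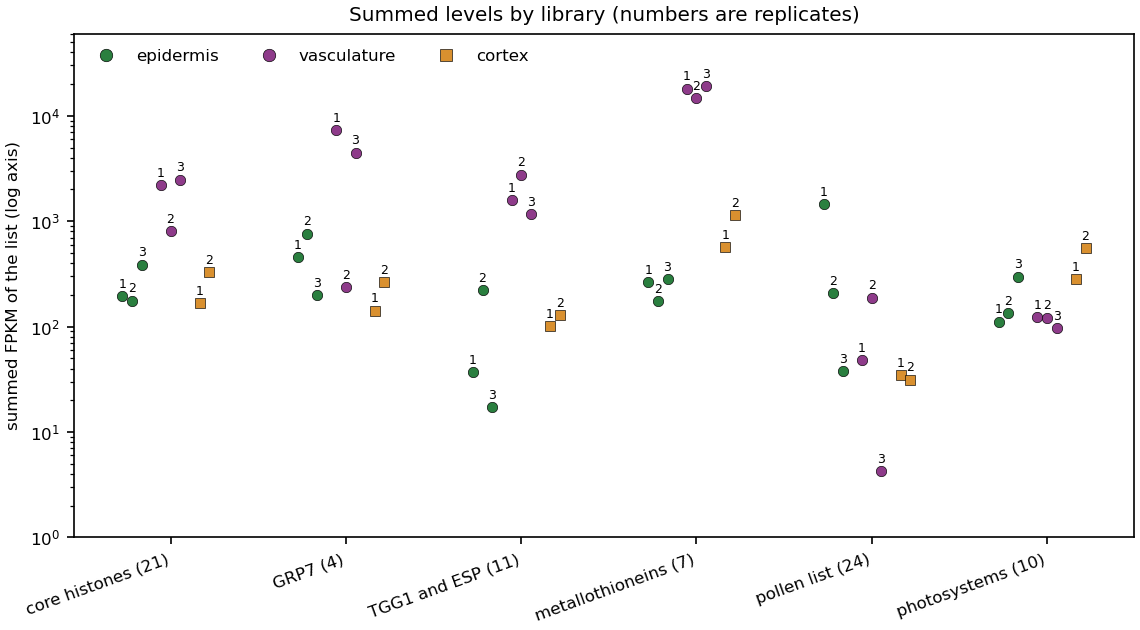
Summed FPKM of 6 groups of transcripts in each library on a log axis, with the number of transcripts in brackets and the replicate number above each point (epidermis green, vasculature purple, cortex orange squares). Vasculature 2 lies below vasculature 1 and 3 in core histones and GRP7 and above them in TGG1 and ESP, the metallothioneins separate the tissues in every library, and pollen transcripts are highest in epidermis 1.

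Pollen transcripts varied between libraries more than between tissues. All 24 tested members of the pollen and pollen tube list came from the study's epidermis list. Of these 24, 22 did not pass, and 21 of the 22 had their highest epidermis value in epidermis 1. The list summed to 1447, 208 and 37.7 FPKM in epidermis 1, 2 and 3 and to 48.1, 188 and 4.26 FPKM in vasculature 1, 2 and 3. The wall protein AGP23 (BnaA03g19650D) was at 302, 33.0 and 1.26 FPKM against 12.2, 38.9 and 0.743 FPKM (adjusted p = 0.608), and the pectin methylesterase VGD1 (BnaA03g21590D) at 59.6, 5.95 and 0 FPKM against 2.78, 7.46 and 0 FPKM. The groups overlap for both. The 2 members that were higher in the epidermis did not have this pattern: the tonoplast channel TIP4;1 (BnaC04g38040D) was at 16.6, 13.8 and 26.0 FPKM against 1.09, 0 and 2.19 FPKM (adjusted p = 0.00241), and BnaAnng32710D, for a protein like ribonuclease H, at 6.65, 6.44 and 6.29 FPKM against 0.648, 1.14 and 0.109 FPKM. Photosystem and chlorophyll transcripts of A01 and A02, a mark of green cells, summed to 112 to 298 FPKM in the epidermis, 97.1 to 122 FPKM in the vasculature and 282 and 551 FPKM in the cortex, and none of 9 tested passed. The part of either group in the results above was not tested.

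Basic functions did not separate the tissues in the stretch of A01 and A02. Among 34 tested ribosomal protein transcripts 1 was higher in the epidermis and none in the vasculature (median log2 difference -0.14), and of 17 heat shock transcripts 1 and 2 were called. Of 57 protein kinases 6 were higher in the epidermis and 7 in the vasculature, and of 39 transporters 2 and 5. The shares over the stretch were 7.17 and 7.97%. None of the 7 tested cyclin, kinesin and tubulin transcripts passed the test. Of 5 histone transcripts 2 were higher in the vasculature, HTA13 (BnaA01g25600D) at 62.7, 17.9 and 67.3 FPKM against 2.34, 0.818 and 4.52 FPKM (adjusted p = 0.00467) and H3.1 (BnaA02g00480D) at 39.3, 12.7 and 46.8 FPKM against 5.34, 2.24 and 6.19 FPKM. Both lipid transfer transcripts were higher in the epidermis, as were 3 of 8 of the GDSL, acyltransferase and elongase group. BnaA01g35710D, of the lipid transfer family, was at 59.7, 38.7 and 32.5 FPKM against 0, 0.498 and 0 FPKM, and the GDSL lipase BnaA01g15910D at 30.6, 25.8 and 32.8 FPKM against 0, 0 and 0.128 FPKM (adjusted p = 3.79e-05).

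The cortex, which lies between the 2 tissues and took no part in the test, was placed on a scale from 0 at the tissue with the lower mean log2(FPKM + 1) to 1 at the tissue with the higher. For transcripts higher in the epidermis the cortex had a median position of 0.66, with quartiles of 0.45 and 0.91, and 562 of the 2899 (19.4%) were higher still in the cortex. For transcripts higher in the vasculature the median was 0.16, with quartiles of 0 and 0.34. Of these 3924, 599 (15.3%) were lower in the cortex than in the epidermis and 2815 more (71.7%) lay nearer to the epidermis. The WF, which holds all tissues, stood at medians of 0.57 and 0.63 in the 2 directions. A transcript of the first kind was BnaC02g38640D, of the lipid transfer family, at 291, 197 and 708 FPKM in the epidermis, 34.9, 2.73 and 26.6 FPKM in the vasculature (adjusted p = 0.0124) and 1412 and 2659 FPKM in the cortex. The cortex has 2 libraries, and these positions are descriptions without a test.

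**Figure D5:**
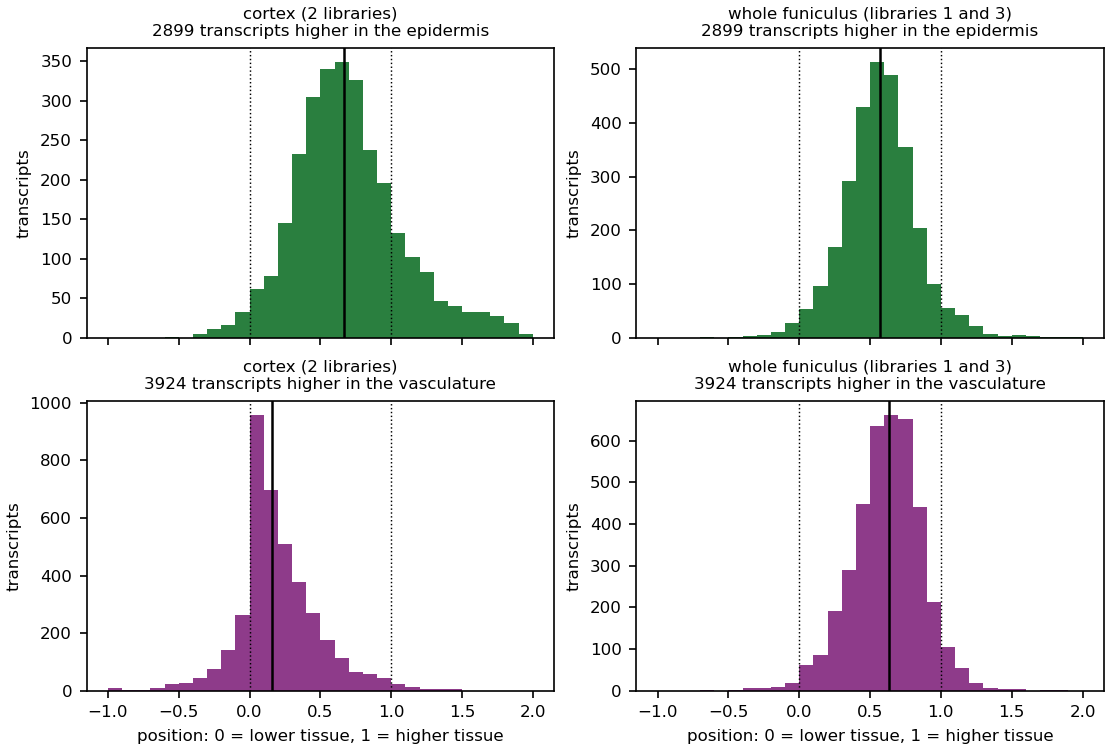
Position of the cortex (left, 2 libraries) and the WF (right, libraries 1 and 3) between the tissues for transcripts higher in the epidermis (top, 2899) and in the vasculature (bottom, 3924), from 0 at the lower to 1 at the higher tissue on the log2(FPKM + 1) scale; dotted lines mark 0 and 1, the solid line the median, and values beyond the axis fall in the end bars. The cortex has a median of 0.66 in the top row and 0.16 in the bottom row, the WF 0.57 and 0.63.

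The subgenomes contributed alike. Of 20415 tested transcripts of the A subgenome 6.76% were higher in the epidermis and 9.22% in the vasculature, and of 22764 of the C subgenome 6.56 and 8.89%. Where the tables pair several *B. napus* transcripts with the same Arabidopsis gene, they mostly shared the call. All of these transcripts come from the tissue lists of the study, so the selection favoured shared calls, and near-identical copies can share reads. Homologs outside those lists were not counted, such as the PME3 homolog of A01 above, which did not pass. Of 145 genes with 2 or more listed transcripts, all of them were higher in the vasculature for 110 and in the epidermis for 9. Among the 9 were PEL3, GRP23, AUX1, LUP2, DGR2 and the extensin-like gene. Only 2 genes had transcripts called in both directions. The MLP-like protein 28 transcript BnaC02g20340D was at 56.5, 73.2 and 69.2 FPKM in the epidermis and 0 in all vasculature libraries (adjusted p = 3.52e-05), while BnaC07g13200D was at 5.26, 2.07 and 3.81 FPKM in the epidermis and 144, 83.0 and 110.2 FPKM in the vasculature (30.3-fold, adjusted p = 0.000149). For DAHP synthase, the entry enzyme of the shikimate pathway, BnaA07g34140D was at 7.15, 15.5 and 16.3 FPKM in the epidermis and 2.18, 2.36 and 3.26 FPKM in the vasculature (adjusted p = 0.0105), and BnaC05g17710D at 0.475, 0.748 and 0.516 FPKM and 11.3, 8.11 and 11.01 FPKM (adjusted p = 0.000387). These 4 transcripts were chosen after their values were seen.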

How the data were processed

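The deposited values are FPKM that the authors computed with Cufflinks 2.2.1 from single-end reads aligned with TopHat2 2.0.13 to the public *B. napus* genome (versions per the submitters' processing notes), already scaled for length and library size. The study reports that it dropped transcripts with no protein match in Arabidopsis, which was not checked here for the deposited values. All columns were matched to a library. Values were used as log2(FPKM + 1), and transcripts averaging 1 FPKM or more in either tissue were tested in R 4.3.3 with limma 3.58.1 (lmFit, then eBayes with its trend option) over the 3 epidermis and 3 vasculature libraries, two-sided, with Benjamini-Hochberg adjustment at 0.05. The CuffDiff test of the study needs reads and was not used. Tested on simulated data over 43564 transcripts, the test recovered 29, 46, 49 and 49 of 50 transcripts changed 4-, 8-, 16- and 32-fold, with 16 false calls. The changed transcripts were drawn from those with a log-scale mean of at least 5 FPKM, with normal noise and no excess of 0 values. Recovery of lower transcripts, or of those at 0 in a tissue, was not tested. Relative depth came from the step of low values, of which 72.4% were whole multiples within 0.1 fragments. Named are the 10 called transcripts of each direction with the highest mean among described ones, the 10 with the largest difference, list members in order of level, and transcripts the study names, with further ones by ID. Members, lists and alternatives were chosen with earlier results of these data known. The description table of detected transcripts was held only for its first 1999 rows. Some items withheld for evaluation are not reported here. Other steps used Python 3.11.15, numpy 2.4.6 and pandas 2.3.3.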

Additional observations from a re-analysis of the deposited data

How the results depend on the processing

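No called transcript changed sign and none was called in the opposite direction under any alternative run. Leaving out 1 library moved the count higher in the epidermis from 2899 to between 1696 (without vasculature 3) and 2586, with 1813 without vasculature 1, and the count higher in the vasculature from 3924 to between 2500 (without vasculature 3) and 3615. The counts of transcripts at least 5-fold higher in the epidermis and of transcripts at least 5-fold higher in the vasculature, 1945 and 2965, ranged over 1427 to 1935 and 2315 to 2890, and the 231 calls among listed genes over 191 to 224. A filter of at least 5 FPKM, which tests fewer transcripts, gave 1866 transcripts at least 5-fold higher in the vasculature. These 4 counts over all transcripts otherwise stayed within 1.5 times when pooling the spread over 8 tissue libraries, using pseudocounts of 0.5 and 0.1 FPKM, no filter, upper-quartile or quantile scaling or no variance trend, and leaving out transcripts with a 0 beside a mean of at least 5 FPKM. Quantile scaling moved the split to 3265 and 3530, and the median log2 difference of all transcripts to 0.02. Deviations of same-numbered epidermis and vasculature libraries correlated at -0.02, 0.04 and 0.11, and epidermis 1 correlated best with vasculature 2, so the numbers were not read as pairs. With the replicate number as a block, 2541 and 3411 transcripts were called, 1758 and 2550 of them 5-fold. Among lists, glycine-rich transcripts higher in the vasculature fell from 4 to 2 with quantile scaling, the block and the 5 FPKM filter, and that filter also left 5 of 18 xylem regulators and 1 of 2 secondary wall calls and 0 of 1 clock calls of the epidermis. Of 704 tested transcripts in the named groups, 70 lost their call without vasculature 3 and 68 without vasculature 1, and the 5 FPKM filter left many of them untested.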

Other observations

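On chromosome A10, 4 neighbouring transcripts without a description were each higher in the epidermis, and no other run of 4 or more adjoining numbers shared a call. BnaA10g24070D was at 85.4, 61.9 and 35.3 FPKM in the epidermis and 1.93, 1.51 and 1.08 FPKM in the vasculature, and BnaA10g24080D at 134, 49.7 and 46.5 FPKM against 7.23, 8.79 and 3.24 FPKM. The outer members BnaA10g24060D and BnaA10g24090D averaged 14.7 and 22.4 FPKM in the epidermis and 0.321 and 5.04 FPKM in the vasculature. Per assembled chromosome, the share of tested transcripts higher in the epidermis ran from 5.72% on A04 to 7.83% on C06, and the share higher in the vasculature from 7.14% on C01 to 10.8% on C07.

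Some transcripts of A01 without a known role were as far apart as the markers. BnaA01g23820D, an unknown protein, was at 76.7, 53.7 and 92.5 FPKM in the epidermis and at 0 in all vasculature and cortex libraries, and BnaA01g11960D, also unknown, was at 27.9, 28.5 and 29.5 FPKM in the vasculature and likewise at 0 outside it, cortex included. The receptor-like kinase transcript BnaA01g12930D was at 26.5, 56.7 and 16.2 FPKM in the epidermis against 0.123, 0.433 and 0.165 FPKM in the vasculature (138-fold, adjusted p = 0.000414). GATA3 (BnaA01g02480D), a zinc finger factor, was at 15.4, 12.3 and 10.99 FPKM in the vasculature and 0, 0 and 0.353 FPKM in the epidermis (adjusted p = 0.000147).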
